A study of Mus musculus with 4 samples.

Results

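The 8 genes described here, Bcl6, Cxcr5, Icos, Il21, Il4, Sh2d1a, Tox2 and Cd40lg, mark follicular helper T cells or carry out their help to B cells. They were chosen by name, from 32285 genes in the count matrices, and each symbol stood on 1 row. Their transcripts were counted in T cells of tumor-draining lymph nodes of wildtype mice, resected 8 days after tumor cells were injected. The RGX-104 group ate chow containing RGX-104 from day 3, which activates the liver X receptors (LXR), nuclear receptors that respond to oxysterols. The other mice ate control chow. Minced, enzyme-digested nodes were sorted by flow cytometry into T cells and antigen-presenting cells (APCs), whose transcripts, with the receptors of the T cells, were sequenced cell by cell with 10x 5' kits. Each chow had 1 RNA library and 1 receptor library, the number of mice behind each is not given, and no replicate exists, so chow and library cannot be told apart.

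Follicular helper T cells are CD4 T cells that enter B cell follicles and sustain germinal centers. BCL6 is the transcription factor that establishes their fate, and CXCR5 is the chemokine receptor that draws them toward CXCL13 in the follicle. ICOS and the adaptor SAP, encoded by Sh2d1a, carry signals from B cells, TOX2 is a transcription factor of the same program, and CD40 ligand, IL-21 and IL-4 are the signals delivered to B cells.

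The annotation by the authors named 84 of 1995 T cells Tfh in the RGX-104 library and 126 of 2099 in the control library, which is 4.21% against 6.003% (ratio 0.701, 95% interval 0.526 to 0.932). Among T cells without a UMI (unique molecular identifier, 1 counted transcript molecule) of Cd8b1, a CD8 chain, the shares were 7.80% and 9.28% (ratio 0.841, interval 0.615 to 1.15). All annotated T cells had medians of 5048 and 4944 UMIs, out of 11312346 and 11464487 UMIs in total. The libraries shared 95 barcodes, of which 15 were annotated in both. All intervals here are at 95% and account for counting error alone, so the variation between mice is not in them.

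The name Tfh was set beside marker genes. These were listed with earlier results of these data known, so they are a description and not an independent check of the name. Of 34 other genes of the follicular helper program, 17 were higher in Tfh than in any other of the 12 T cell types, on the summed counts of both libraries, and 7 were second. Pdcd1, which encodes PD-1, stood at 89.4 CPM (UMIs per 1000000 UMIs of the same cells) in Tfh against 50.9 CPM in Treg, the next type. Other program genes ranked low in Tfh, with Il21r at rank 10 and Lef1 and Bach2 at rank 9. Summed over the 34 genes, Tfh had 6032 CPM with RGX-104 and 5934 CPM on control chow, and Treg had 5291 and 5556 CPM. Part of the cluster went against its name. Cd8b1 UMIs were present in 8 of 84 RGX-104 Tfh (9.52%) and in 27 of 126 control Tfh (21.4%), and 4 and 18 of these cells had no Cd4 UMI. In addition, 2 RGX-104 and 4 control Tfh had no UMI of Cd3e, Cd3d or Cd3g, and the 4 control cells held 6 Il13, 6 Il17a and 15 Gata3 UMIs. Values are therefore given with and without the cells that carry Cd8b1.

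Receptor sequences gave a view of these cells that the 8 genes do not. Among Tfh with 1 alpha and 1 beta chain, a pair of V and J combinations occurred in at least 3 cells, and neither occurred in any other of the 3498 T cells with a receptor. Both were picked after the receptors had been seen. TRAV6N-7 with TRAJ15 and TRBV3 was found in 1 RGX-104 cell and 2 control cells. The RGX-104 cell and the first control cell, from different libraries, had the same alpha CDR3 and different beta CDR3s. They are shown because these cells carried cytokine transcripts, and the capitals mark the bases between the shared start and the shared end.
RGX-104 cell, alpha: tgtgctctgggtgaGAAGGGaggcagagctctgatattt
first control cell, alpha: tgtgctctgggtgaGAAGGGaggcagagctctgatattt
second control cell, alpha: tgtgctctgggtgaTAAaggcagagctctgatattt
RGX-104 cell, beta: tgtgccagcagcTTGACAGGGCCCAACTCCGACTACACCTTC
first control cell, beta: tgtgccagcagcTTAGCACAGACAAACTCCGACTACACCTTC
second control cell, beta: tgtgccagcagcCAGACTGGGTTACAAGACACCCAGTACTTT

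The RGX-104 cell held 2 Il4 UMIs, 0 Il21 UMIs and 9 Bcl6 UMIs. The first control cell held 2 Il21 and 5 Bcl6 UMIs, and the second held 6 Il21 and 2 Bcl6 UMIs, with no Il4 in either. All 3 had Cd4 UMIs, and the RGX-104 cell, the deepest of them at 19774 UMIs, also had 3 Cd8b1 UMIs.

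TRAV7D-3 with TRAJ9 and TRBV19 was found in 1 RGX-104 Tfh, which has a second alpha chain, and in 3 control Tfh. All 4 cells carried between 6 and 9 Cd8b1 UMIs and no Cd4 UMI. None held Il21, Il4, Cxcr5 or Tox2, and all held Icos and Sh2d1a. The alpha CDR3 of the RGX-104 cell and the one that all 3 control cells shared differed within the stretch in capitals. Of the control cells, 2 also had the same beta CDR3 and belonged to a clonotype of 2 cells in the authors' clonal frequency, whereas the other control cell had a different one. The capitals of the beta chains follow the start that all 4 cells share.
RGX-104 cell, alpha: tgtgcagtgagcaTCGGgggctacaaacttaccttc
control cells, alpha: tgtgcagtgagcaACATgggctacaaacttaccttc
RGX-104 cell, beta: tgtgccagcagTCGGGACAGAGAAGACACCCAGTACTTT
2 control cells, beta: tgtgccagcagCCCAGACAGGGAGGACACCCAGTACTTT
other control cell, beta: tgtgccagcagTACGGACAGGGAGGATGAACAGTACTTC

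The transcription factor Bcl6 lies on chromosome 16 of GRCm38, at chr16:23965050-23988866. It had 45 UMIs in 23 RGX-104 Tfh and 62 UMIs in 35 control Tfh, which is 80.6 and 85.2 CPM (ratio 0.946, interval 0.630 to 1.41). Tfh stood first among T cell types at 83.2 CPM over both libraries, Treg second at 24.6 CPM, and their intervals did not overlap. Only 30.9% of the Bcl6 UMIs of T cells came from Tfh. Bcl6 was also found outside T cells: the APC type named mLC had 85.3 CPM with RGX-104 and 87.9 CPM on control chow, and all APCs had 60.3 and 56.9 CPM.

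Tox2, at chr2:163203058-163324172, was far more restricted. Tfh held 33 of 39 Tox2 UMIs of RGX-104 T cells (84.6%) and 36 of 49 of control T cells (73.5%), although Tfh held only 4.93% and 6.35% of all UMIs. Its level was 59.1 CPM in RGX-104 Tfh and 49.5 CPM in control Tfh (ratio 1.195, interval 0.722 to 1.97). Treg came next at 8.49 CPM over both libraries.

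Cxcr5, the follicle homing receptor at chr9:44511787-44526444, had 22 UMIs in 11 RGX-104 Tfh and 17 UMIs in 14 control Tfh. These are 39.4 and 23.4 CPM (ratio 1.69, interval 0.856 to 3.39), and the interval includes 1. The share of cells with a UMI was 13.1% of RGX-104 and 11.1% of control Tfh, against 2.93% and 2.28% of the other T cells. Among T cells Tfh ranked first at 30.3 CPM over both libraries, followed by CD8_03 at 14.6 CPM. The highest Cxcr5 levels lay outside T cells: barcodes without annotation that carried at least 3 B cell markers had 120.1 CPM with RGX-104 and 115.4 CPM on control chow.

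The costimulatory receptor Icos, at chr1:60960773-61000322, was the most abundant of the 8 genes in Tfh, with 252 UMIs in RGX-104 and 356 UMIs in control cells. That is 452 and 489 CPM (ratio 0.923, interval 0.782 to 1.09). It was detected in 81.0% of RGX-104 and 73.0% of control Tfh, against 7.33% and 6.44% of barcodes without annotation that carried at least 3 B cell markers. Tfh ranked behind Treg at 965 CPM and gd T cells at 764 CPM over both libraries, and none of these 3 intervals overlapped. Sh2d1a, at chrX:42502565-42522097, stood at 254 CPM in RGX-104 Tfh and 231 CPM in control Tfh (ratio 1.10, interval 0.875 to 1.39). Over both libraries it was as high in Cytotoxic T cells (238 CPM) as in Tfh (241 CPM), with overlapping intervals.

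The signals to B cells fell into separate patterns. Cd40lg, at chrX:57212143-57224042, was at 203 CPM in RGX-104 Tfh and 209 CPM in control Tfh (ratio 0.969, interval 0.753 to 1.25). It was highest in gd T cells (383 CPM over both libraries), then Tfh (206 CPM), then Th1_03 (163 CPM). Il21, at chr3:37222759-37232636, had 19 UMIs in 10 RGX-104 Tfh and 27 UMIs in 12 control Tfh (ratio 0.918, interval 0.482 to 1.71). Il4, at chr11:53612460-53618665, had 15 UMIs in 5 RGX-104 Tfh and 28 UMIs in 13 control Tfh (ratio 0.699, interval 0.347 to 1.35). All 43 Il4 UMIs of T cells came from Tfh, whereas the other 1911 RGX-104 and 1973 control T cells had 0, which, taken as at most 3 cells of each total, allows shares of up to 0.157% and 0.152% of cells with a UMI.

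**Figure D1:**
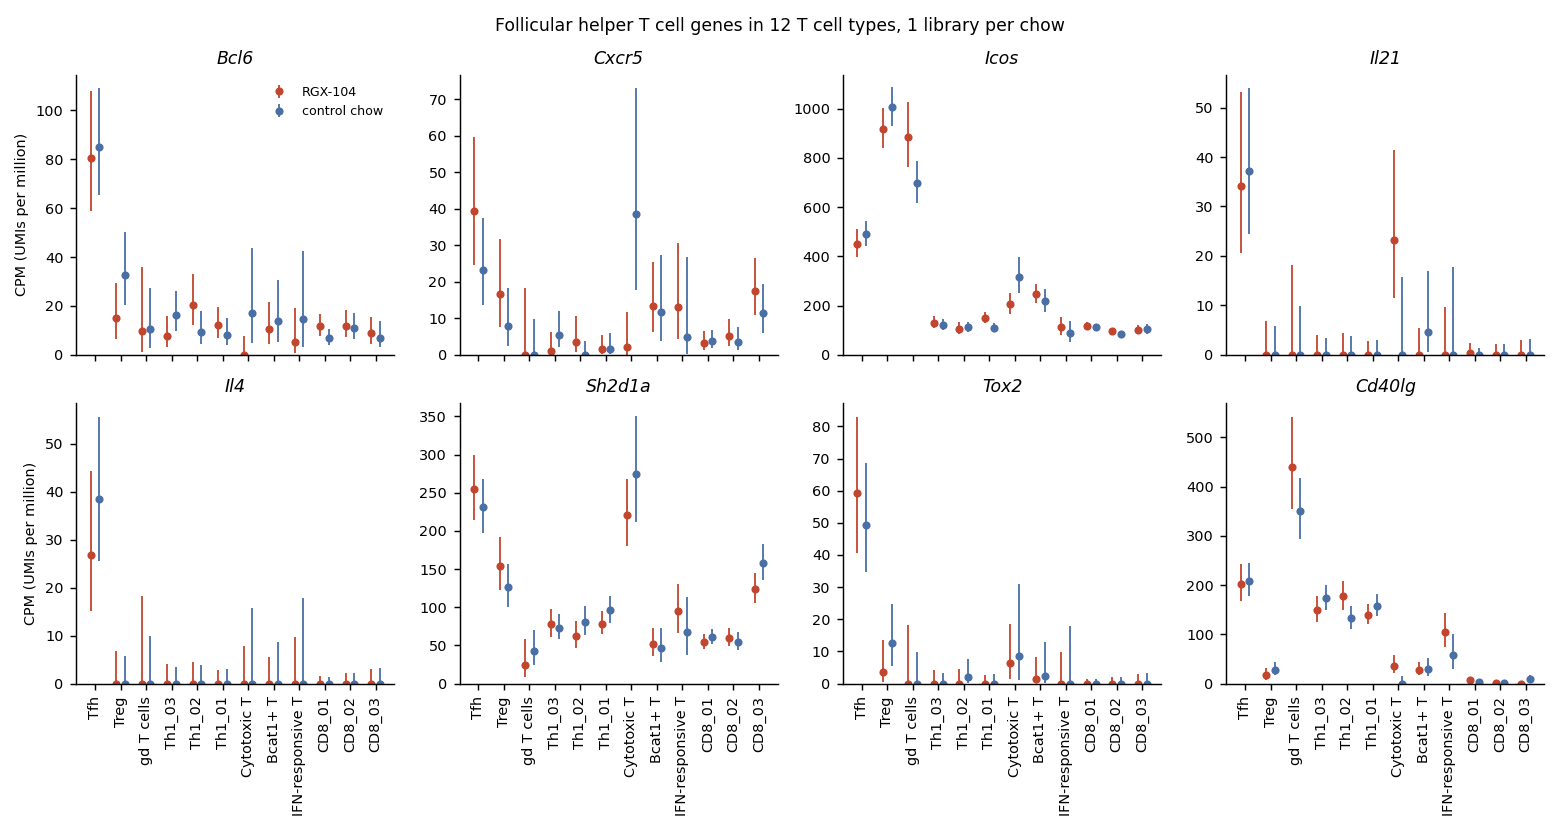
CPM of each gene in the 12 T cell types, with RGX-104 in red to the left of control chow in blue. Points are 1 library each and bars are exact Poisson 95% intervals; Il4 was above 0 in Tfh alone, and Icos was higher in Treg (917 and 1006 CPM) than in Tfh (452 and 489 CPM).

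Outside Tfh, Il21 had 12 UMIs in RGX-104 T cells and 2 UMIs in control T cells, and 11 of the 12 came from 1 Cytotoxic T cell. In RGX-104 Tfh 5 cells had Il4 without Il21, 10 had Il21 without Il4 and 0 had both, and in control Tfh the counts were 8, 7 and 5. Of the Il21-positive control Tfh, 41.7% of 12 carried Il4, against 7.02% of the 114 without Il21, and the corresponding shares with RGX-104 were 0 of 10 and 6.76% of 74. The control cells with and without Il21 had median depths of 8118 and 4650 UMIs, and the part of depth in these shares was not tested. Of the 13 cells with Il4 alone, 10 carried Il7r, 6 carried Cd4 and 3 lacked any Cd3 UMI, and those 3 held 13 of their 37 Il4 UMIs. Of the 17 cells with Il21 alone, 2 carried Il7r, 16 carried Cd4 and 0 lacked Cd3. Of the 175 Tfh with neither cytokine, 99 carried Il7r and 125 carried Cd4. Among the 13 and the 17 cells, 4 and 9 carried Bcl6, 2 and 6 Tox2, 3 and 4 Cxcr5, and 5 and 8 Pdcd1. With RGX-104, 2 of 5 cells with Il4 alone and 3 of 10 with Il21 alone carried Bcl6, with the same counts for Tox2. Cxcr5 was carried by 3 and 1 of these cells, and Pdcd1 by 3 and 3. All Il21-positive Tfh with a receptor, 9 with RGX-104 and 12 on control chow, belonged to clonotypes of 1 cell in the authors' clonal frequency. The share of these cells in larger clonotypes was thus 0, with upper interval bounds of 33.6% and 26.5%. Among all Tfh with a receptor that share was 16.9% and 21.1%, which lies inside these intervals.

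The sequence before the start of the 2 cytokine genes is shown because their UMIs were the most confined to Tfh together with those of Tox2. GGAAA is the core that NFAT factors bind, and it was searched on both strands (as TTTCC on the other) in the 250 bases before each start, in RefSeq windows of GRCm38.p6. Windows were found for 4 of the 8 genes, and several starts of 1 gene have a window each. The windows at the outermost starts of Il21 and Il4 are printed, and the capitals mark the matches.
Il21, chr3:37232637-37232886, minus strand: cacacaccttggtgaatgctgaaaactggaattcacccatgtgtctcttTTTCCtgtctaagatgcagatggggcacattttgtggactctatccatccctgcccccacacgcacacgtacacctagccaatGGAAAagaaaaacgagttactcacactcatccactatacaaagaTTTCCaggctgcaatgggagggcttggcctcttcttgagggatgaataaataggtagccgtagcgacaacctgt
Il4, chr11:53618666-53618915, minus strand: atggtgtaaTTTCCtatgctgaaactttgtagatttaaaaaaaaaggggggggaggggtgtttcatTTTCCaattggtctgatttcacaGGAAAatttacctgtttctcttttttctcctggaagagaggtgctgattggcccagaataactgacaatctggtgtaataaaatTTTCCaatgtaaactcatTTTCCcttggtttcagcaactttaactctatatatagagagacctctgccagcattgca

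The printed windows held 5 matches for Il4 and 3 for Il21. A second Il4 window, at chr11:53617339-53617588, held 0, and Il21 has no second window. The 2 Bcl6 windows held 1 and 3 matches, and the 5 Tox2 windows held 0 or 1. Of 32851 windows of the same length, 55.6% held at least 1 match, 6.39% at least 3 and 0.390% at least 5. The printed Il4 window has 37.6% G and C and the Il21 window 47.6%. A match describes the sequence alone, and binding was not measured.

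With RGX-104 against control chow, none of the 8 genes had an interval that excluded 1 in Tfh. Of all measured genes in Tfh, 5.14% had an interval above 1 and 6.51% below. None of the 5 genes with at least 50 UMIs over both libraries differed by 1.5-fold, against 4.3% of 3794 genes so measured in Tfh that were at least 1.5-fold higher and 5.43% that were at least 1.5-fold lower. The intervals still allow differences in either direction, up to 3.39-fold for Cxcr5. Without the cells carrying Cd8b1, Bcl6 had a ratio of 0.671 (interval 0.421 to 1.06). In the cells carrying Cd8b1 it had 12 RGX-104 and 9 control UMIs (ratio 4.34, interval 1.68 to 11.7), and 9 of those 12 came from the cell with 19774 UMIs described above. Without the 1 cell of each library with most Bcl6 UMIs, the ratio in Tfh was 0.845. Without all cells carrying Cd8b1, the Il4 ratio was 0.5004 (interval 0.238 to 0.998), from 13 RGX-104 and 28 control UMIs. These are too few for Il4 to count as measured. Cells with no Cd3 UMI held 7 of the 13 and 6 of the 28. In all Tfh, the Il4 ratio without the cells lacking Cd3 was 0.473. In the Tfh without Cd8b1 5.17% of measured genes had an interval above 1 and 6.7% below. Cxcr5 (1.49), Icos (1.01), Il21 (0.705), Sh2d1a (1.03), Tox2 (1.01) and Cd40lg (0.845) had intervals that included 1.

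In the 22 Tfh with Cd8b1 and without Cd4, Il21, Il4 and Tox2 were at 0 UMIs, while 17 cells carried Icos. In the 13 cells with both, all 8 genes were detected.

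Over all T cells, Icos was 195 CPM with RGX-104 and 208 CPM on control chow (ratio 0.938, interval 0.885 to 0.995), and the other 7 intervals included 1. Of all measured genes in T cells, 10.1% had an interval above 1 and 12.6% below. Without the cells carrying Cd8b1, 3 intervals lay below 1, those of Bcl6 (ratio 0.748, interval 0.561 to 0.992), Icos (ratio 0.873, interval 0.811 to 0.940) and Il4 (ratio 0.501, interval 0.238 to 0.999). The Cxcr5 ratio there was 1.503, with an interval that included 1. Of the genes measured in these cells, 7.15% had an interval above 1 and 11.6% below, and Il4, with 13 RGX-104 and 28 control UMIs, is not among them. Over all T cells with the share of each type held at the mean of both libraries, the Icos ratio was 1.02. Among all T cells 2.92% of 10214 genes were at least 1.5-fold higher and 1.66% at least 1.5-fold lower. Each library had 50 cells or more of 8 types, so that 64 pairs of gene and type could be set side by side, of which 21 gave no ratio. The interval lay above 1 in 2 pairs, below 1 in 2 and included 1 in 39. In 22 of the pairs the gene was measured, with at least 50 UMIs, and of these 2 lay above 1 (9.09%) and 1 below (4.55%). Over all 39939 measured pairs of gene and type, 5.33% lay above 1 and 6.5% below. Icos was higher in Th1_01 (150 against 110 CPM, ratio 1.37, interval 1.09 to 1.71) and Cd40lg in Th1_02 (178 against 133 CPM, ratio 1.34, interval 1.05 to 1.72). Sh2d1a was lower in CD8_03 (124 against 157 CPM, ratio 0.786, interval 0.630 to 0.979), as was Cd40lg, with 0 against 11 UMIs.

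**Figure D2:**
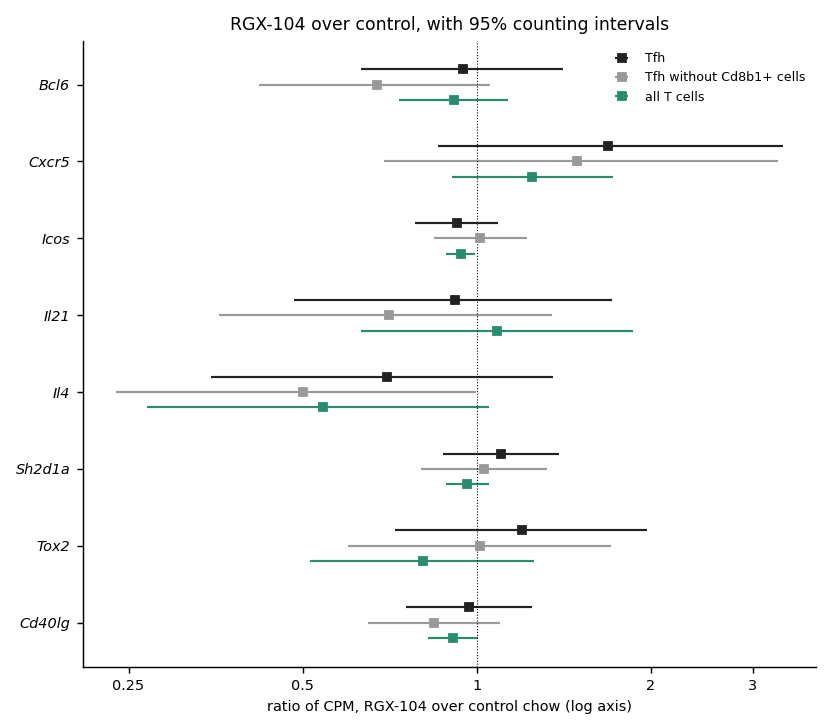
Ratio of CPM, RGX-104 over control chow, for each gene in Tfh (black), in Tfh without Cd8b1-positive cells (grey) and in all T cells (green), on a log axis with 95% counting intervals. All 8 intervals in Tfh cross 1, and Icos over all T cells lies at 0.938.

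At least 3 of the 8 genes were detected in 41 of 84 RGX-104 Tfh (48.8%) and in 55 of 126 control Tfh (43.7%). In the other 7 compared types the share was at most 17.5%, in control Treg. With every cell thinned to 2000 UMIs, the shares were 20.2% of 84 RGX-104 and 14.9% of 121 control Tfh. Among Tfh of both libraries, 57.6% of 33 Tox2-positive cells carried Bcl6 and 42.4% carried Cxcr5, against 22.0% and 6.21% of 177 Tox2-negative Tfh. Of 22 Il21-positive Tfh, 54.5% carried Bcl6 and 27.3% carried Cxcr5, against 24.5% and 10.1% of 188 Il21-negative Tfh. Median depth was 5699 UMIs in Tox2-positive and 4976 UMIs in Tox2-negative cells, and 7128 and 5086 UMIs with and without Il21, and its part in these shares was not tested.

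**Figure D3:**
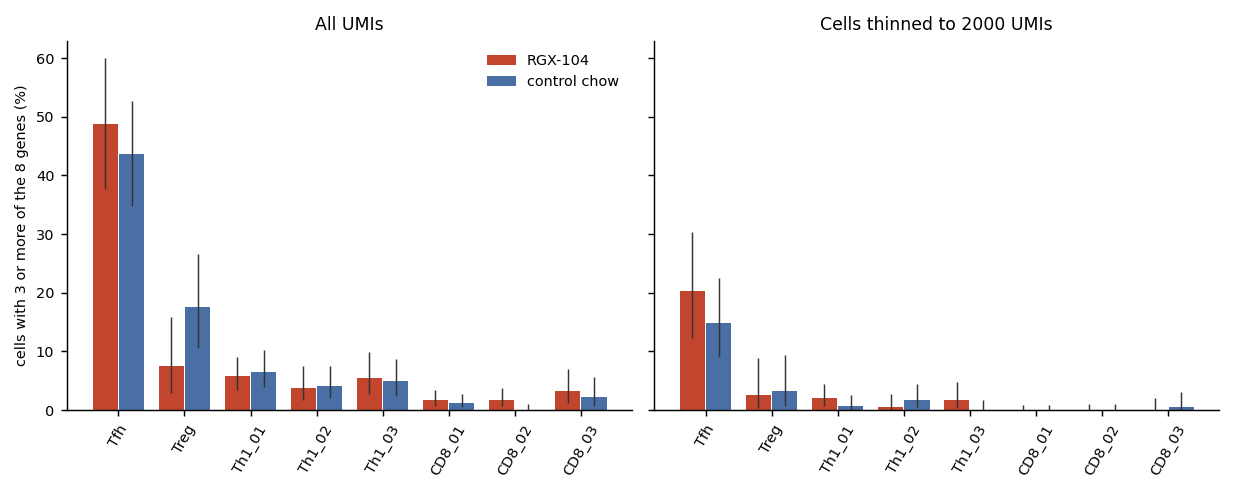
Share of cells with UMIs of at least 3 of the 8 genes, by T cell type, with RGX-104 in red and control chow in blue, for all UMIs and for cells thinned to 2000 UMIs. Bars carry Clopper-Pearson 95% intervals; Tfh stand at 48.8% and 43.7%, and at 20.2% and 14.9% after thinning.

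Across the 8 compared types in both libraries (16 points, on log2(CPM + 10)), Tox2 followed the mean of the other 7 genes most closely (r = 0.96), then Bcl6 (0.92), Il21 (0.91) and Il4 (0.90). Cd40lg followed it least (0.35). The 8 genes were chosen as genes of Tfh, so r does not test whether they belong together. In the compared types other than Tfh, Il4 had 0 UMIs and Il21 had 1 UMI, in CD8_01. Tox2 had 10 UMIs in Treg and 2 in Th1_02, and 0 in the other compared types. For Il4, Il21 and Tox2 r gives little beyond the contrast of Tfh with the rest. The points leave out gd T cells, with Cd40lg at 383 CPM, and Cytotoxic T cells, with Sh2d1a at 238 CPM. The 10 other genes most like the mean of all 8 were Cd200, Tbc1d4, Ptger2, Tmem38b, Tnfaip8, Gpm6b, Synpo, Tnfsf11, Sccpdh and Smtn, with r of at least 0.95. The points share libraries and types, and genes read in few cells enter them too. Cd200, for example, was at 136 CPM in RGX-104 Tfh and 129 CPM in control Tfh and at most 37.5 CPM in any other type.

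LXR targets were higher in RGX-104 Tfh for all 5 genes listed, as they were over all T cells. Their median log2 ratio was 2.47 in Tfh and 2.34 over all T cells. In Treg it was 2.87, over the 4 of them that were measured there. Abca1, a cholesterol exporter, had 213 CPM with RGX-104 and 12.4 CPM on control chow (ratio 17.2, interval 8.78 to 38.6), and Scd2, Mylip, Abcg1 and Srebf1 had ratios from 8.43 to 4.28. Of the 29 measured program genes other than the 8, 1 was at least 1.5-fold higher and 3 were at least 1.5-fold lower, and without the Cd8b1-positive cells 0 and 4. Among all measured genes in Tfh, 4.3% were higher and 5.43% lower by that fold, and 3.82% and 6.23% without those cells. Irf4, a transcription factor induced by receptor signals, was at 23.3 CPM in RGX-104 Tfh and 122 CPM in control Tfh (ratio 0.190, interval 0.098 to 0.343). Over all T cells its ratio was 1.202. Angptl2 (0.486) and Gpm6b (0.635) were the others at least 1.5-fold lower. The gene at least 1.5-fold higher, Sostdc1 (1.54), took 55 of its 72 RGX-104 UMIs from 1 cell. It had a ratio of 0.300 without the Cd8b1-positive cells. By interval, 4 of the 29 lay above 1 and 4 below, against 5.14% and 6.51% of all measured genes in Tfh. Among those above 1 were Maf (1.47, interval 1.16 to 1.88) and Cxcr4 (1.46, interval 1.15 to 1.85). Without the Cd8b1-positive cells 1 lay above 1 and 6 below, against 5.17% and 6.7%. Cxcr4 was then at 1.36 (interval 1.05 to 1.75) and Maf at 1.24 (interval 0.963 to 1.60).

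Of 13 measured genes that restrain the program or keep T cells outside follicles, 1 was higher and 2 were lower by 1.5-fold, against the 4.3% and 5.43% of all measured genes in Tfh. Without the Cd8b1-positive cells 1 was higher and 4 were lower, against 3.82% and 6.23% of all genes measured in those Tfh. Klf2, which promotes exit from lymph nodes, was at 147 CPM in RGX-104 Tfh and 367 CPM in control Tfh (ratio 0.400, interval 0.309 to 0.515), and Ccr7, the T zone chemokine receptor, had a ratio of 0.640 (interval 0.526 to 0.776). Over all T cells their ratios were 0.696 and 0.798. Runx3 was higher, with a ratio of 1.80 (interval 1.27 to 2.57). Of 11 measured activation genes, 0 were higher and 4 lower by 1.5-fold, against the same 4.3% and 5.43%. Without the Cd8b1-positive cells the counts were 0 and 2 of 10, against 3.82% and 6.23%. Cd69 had a ratio of 0.548 and Fos 0.570 in Tfh, and 0.641 and 0.585 over all T cells. By interval, 1 of the 11 lay above 1 and 5 below, against 5.14% and 6.51% of all measured genes in Tfh. The gene above 1 was Nr4a3, with a ratio of 1.42 (interval 1.16 to 1.75). Without the Cd8b1-positive cells its ratio was 1.48 (interval 1.18 to 1.86). The Cd8b1-positive share differed beside these results. Without those cells the ratio was 0.174 for Irf4, 0.324 for Klf2, 0.627 for Ccr7 and 1.74 for Runx3.

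**Figure D4:**
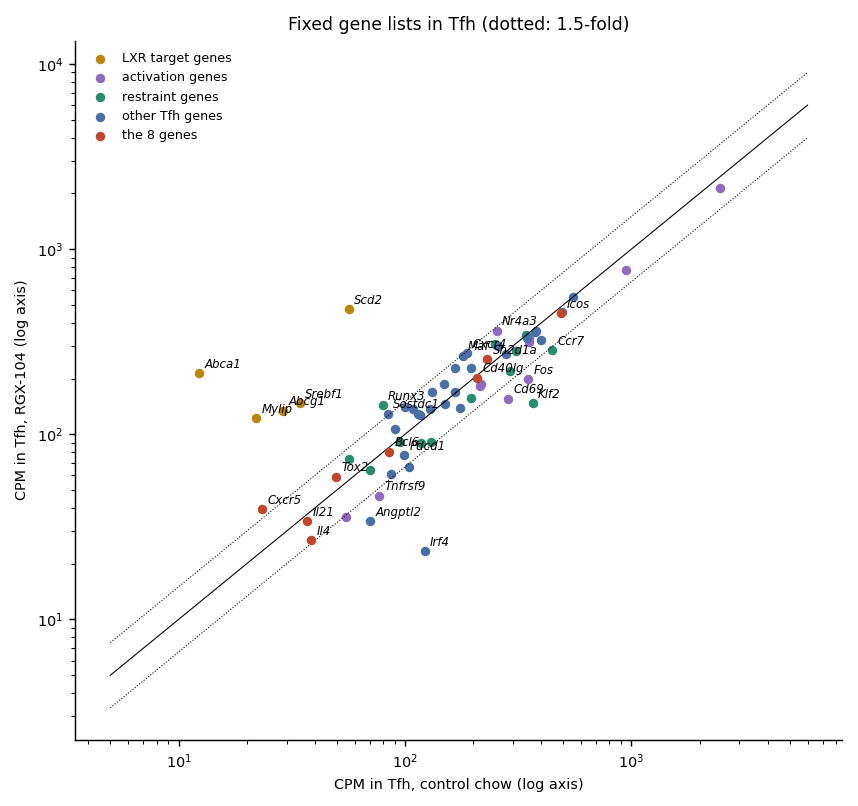
CPM in Tfh of RGX-104 (vertical) against control chow (horizontal), both on log axes, for the 8 genes and for listed genes with at least 50 UMIs; dotted lines mark 1.5-fold. The LXR targets lie above the lines, with Abca1 at 213 and 12.4 CPM, and Irf4 lies below them at 23.3 and 122 CPM.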

How the data were processed

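The authors deposited raw UMI counts of each gene in each barcode, from Cell Ranger 5.0.0 (per the file headers), with mm10 and Seurat 5.0.3 named in the submitters' processing notes. The annotation tables the authors deposited give UMI and gene counts, mitochondrial percent, cell type name and doublet class, and all 4094 T cells are classed singlets.

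Annotated cells were joined to barcodes by total UMIs, genes detected (over genes in at least 3 barcodes) and mitochondrial percent. All 5825 matched exactly 1 barcode. Their receptor sequences were found among the contigs of the matched barcode in every cell tested. Counts were summed by library and type. CPM carries an exact Poisson interval, a share a Clopper-Pearson interval, and the RGX-104 to control ratio an exact conditional binomial interval, all at 95%. A gene is called measured from 50 summed UMIs of both libraries, and a library at 0 enters a ratio with a floor of 3 counts. The limit given beside a share of 0 is that same floor over the number of cells, which is lower than the upper Clopper-Pearson bound. With 1 library per chow there is no p-value.

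The members and lists were chosen with earlier results of these data known. Ratios in Tfh are named beside the 8 for up to 4 measured genes of each list with the interval bound farthest from 1. Further program genes past 1.5-fold and all 5 LXR targets are named too, as are the 10 genes most like the 8. Alternatives used edgeR 4.0.16 (TMM and median-of-ratios factors) and Scrublet in scanpy 1.11.5, whose own threshold marked 0 barcodes, so that the 6% with the highest scores were left out instead. Thinning to 2000 UMIs is a random draw. The draw used for the ratios was changed after its first values had been seen, to the one used for the shares of cells, and both draws are reported.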

Additional observations from a re-analysis of the deposited data

Results flagged for a closer look

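Cd40lg moved in opposite directions in 2 types. Its ratio of RGX-104 to control was 1.34 in Th1_02, and in CD8_03, with 0 RGX-104 and 11 control UMIs, it was at most 0.247 against a floor of 3 counts. With 1 library per chow the difference between the types was not tested.

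In barcodes without annotation and with fewer than 3 B cell markers, which enter no comparison above, Bcl6 was at 35.1 CPM with RGX-104 and 26.4 CPM on control chow (ratio 1.33, interval 1.10 to 1.61). These barcodes have not been assigned to cell types.

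Il4 in APCs came from a single RGX-104 cell named rcDC2, with 130 Il4 UMIs against 0 in control rcDC2, at least 19.9-fold higher than the floor. That cell also held 31 Il13, 66 Il6, 54 Hdc and 12 Mcpt8 UMIs, and 0 Cd74, H2-Ab1 and Cd3e UMIs, of 7200 in all. Hdc and Mcpt8 are known from basophils and mast cells. The cell was noticed after its values had been seen.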

How the results depend on the processing

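Of 207 alternative values for the 16 ratios of the 8 genes (over T cells as a whole and within Tfh), 189 stayed inside the 95% interval of the reported ratio, 17 left it and 1 changed direction past it. In all, 23 lay on the other side of 1 from the reported ratio and 13 differed from it by over 1.5 times.

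Icos over all T cells (0.938) was 1.02 with type shares held at their mean, 0.873 without Cd8b1-positive cells, and 0.998 both in the second thinning draw and as the expected value over draws. Thinned values rest on few UMIs and on the draw. In Tfh the first and the second draw gave 0.939 and 1.44 for Bcl6, 1.15 and 1 for Icos, 0.960 and 1.44 for Cxcr5 (reported as 1.69), 0.864 and 0.288 for Il4, 0.855 and 1.205 for Sh2d1a, and 2.30 and 1.08 for Tox2, and Il4 over all T cells was 0.627 and 0.209. The further draw and the expected value were added after the data had been seen. The expected values in Tfh ran from 0.871 for Il4 to 1.45 for Il21. The mean of per-cell CPM gave 1.51 for Il21 in Tfh (reported as 0.918). Leaving out cells with 2 or more B cell or myeloid markers removed 59.5% of RGX-104 and 38.1% of control Tfh and gave 0.692 for Icos, 0.348 for Il4 and 2.23 for Tox2 in Tfh, and 0.816 for Icos, 0.239 for Il4, 1.21 for Tox2 and 0.817 for Cd40lg over all T cells. Cd40lg over all T cells was 1.04 with type shares held. Without Tfh, Il21 over T cells was 5.99 and Tox2 0.461, and Il4 gave no value. The causes were not tested.

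Genes at least 1.5-fold higher or lower numbered 298 and 170 over T cells, then 163 and 206 within Tfh. With a minimum of 10 UMIs the counts were 857, 608, 951 and 1182, with 200 UMIs 86, 40, 12 and 21, and at 2-fold 89, 45, 28 and 32. With log2(CPM + 1), 3 of the 10 most alike genes were shared. No paired analysis was possible because each chow has 1 library.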

Other observations

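Among Treg, cells with both Foxp3 and Cxcr5 UMIs, the pair that marks follicular regulatory T cells, numbered 5 of 79 with RGX-104 and 2 of 97 on control chow. Cells with both Foxp3 and Bcl6 numbered 4 and 11. The invariant chain TRAV11 with TRAJ18 of natural killer T cells was found in 1 RGX-104 and 2 control Tfh, and in 6 and 6 gd T cells, where Il4 was at 0 UMIs in both libraries.

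Clonotypes of at least 2 cells, by the authors' clonal frequency, held 13 of 77 RGX-104 Tfh with a receptor (16.9%) and 24 of 114 control Tfh (21.1%). Over all T cells the shares were 25.8% and 16.0%, so Tfh lay below the RGX-104 share and above the control share. The intervals in Tfh, 9.31% to 27.1% and 14.0% to 29.7%, overlap widely. Each also contains the share over all T cells of its library, so neither order is resolved.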
